A study of Mus musculus with 54 samples.

Results

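M2-like macrophages transfected with a pool of small interfering RNAs (siRNA pool) against E2f1 were compared with M2-like macrophages transfected with a negative siRNA pool. Each group held 3 RNA-seq libraries, chosen by their labels, so the comparison rests on 6 of the 36 libraries of the reprogramming experiment, sequenced as paired reads of 150 nt, and on 6 of the 54 libraries of the whole series. The cells were thioglycolate-elicited peritoneal macrophages of C57BL/6 mice aged 8 to 20 weeks, collected by lavage 4 days after injection. All M2-like groups had been kept for 24 h in 10 ng/ml IL-4. In every transfected group the reagent was DharmaFECT 4, IL-4 was then left out of the medium, and RNA was taken 48 h after transfection. Beside the negative siRNA pool there was a second control, the M2-like mock, which received the reagent without siRNA. The other groups used here were the M2-like Myc, Pparg and Stat6 knockdowns with 1 siRNA pool each, of which the Myc pool came from another supplier than the rest, the combined knockdown of all 4 genes (iM1), and the M1-like mock, which was polarized with LPS and IFNγ and received the reagent alone. The model across all 36 libraries, and the plot of E2f1, also hold untransfected M2-like and M1-like cells and unpolarized (M0) cells, untransfected and mock. A knockdown of this kind is transient and partial, and each library averages over a whole adherent population, so that fewer cells of a type and less RNA per cell cannot be told apart. The labels do not say whether replicates came from separate mice, so the p-values measure only the spread between these libraries.

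E2F1 is a transcription factor that binds DNA together with a DP partner (Tfdp1, Tfdp2) and switches on genes needed to enter S phase. In resting cells it is held inactive by the retinoblastoma protein (Rb1), until cyclin-dependent kinases phosphorylate that protein. E2F1 also has known roles in apoptosis and in lipid and glucose metabolism. Elicited peritoneal macrophages are differentiated cells with little proliferation, and IL-4 drives them through STAT6 and PPARγ towards the alternatively activated, M2-like state.

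The 6 libraries held between 15179231 and 18150125 counts. The chi-square between replicates was 4.48 to 7.05 per gene within the 2 groups, above the level of counting error, so no library was a copy of another. The summed level of the 9 macrophage markers was 12280 to 12500 CPM (counts relative to the scaled size of the library) after E2f1 knockdown and 13020 to 14010 CPM in the negative siRNA pool, and none of the 9 genes was called different. All 6 B cell markers were detected, with a sum of 7.47 to 25.4 CPM after E2f1 knockdown and 7.15 to 19.7 CPM in the negative siRNA pool. The 9 mesothelial and fibroblast markers summed to 222 to 322 CPM and to 290 to 417 CPM, ranges that overlapped, and none was called. T or NK cell markers reached at most 6.98 CPM, neutrophil markers 5.32 CPM, mast cell markers 4.86 CPM and dendritic cell markers 3.34 CPM in any of the 6 libraries. The eosinophil list summed to 29.1 to 44.8 CPM and to 33.5 to 38.8 CPM, while its defining markers Epx and Prg2 had no count. Mitochondrial transcripts took 1.33 to 1.35% of the counts after E2f1 knockdown and 1.08 to 1.10% in the negative siRNA pool, without overlap, and 1.32 to 1.57% in the M2-like mock. The part of these differences in the results below was not tested.

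The targeted gene fell in all 3 libraries. E2f1 (ENSMUSG00000027490, chr2:154559407-154569892, minus strand, GRCm38) was at 4.88, 5.94 and 4.34 CPM after E2f1 knockdown and at 20.9, 17.3 and 22.0 CPM in the negative siRNA pool. The mean after knockdown, 5.06 ± 0.81 CPM (SD, n = 3), was 25.2% of that in the negative siRNA pool, a log2 fold change of -1.98 (SE 0.12, adjusted p = 1.3e-12, edgeR quasi-likelihood test with Benjamini-Hochberg adjustment). Against the M2-like mock, where E2f1 was at 25.7, 28.2 and 26.5 CPM, the log2 fold change was -2.40 (adjusted p = 4.0e-15). The single knockdowns of Myc, Pparg and Stat6 left E2f1 at means of 23.2, 24.7 and 24 CPM, and the iM1 cells, which received the E2f1 pool beside the 3 others, were at 12.1 CPM. No library outside the E2f1 knockdown came below the lowest of the iM1 libraries, so the lowest level was that of the E2f1 pool given alone.

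**Figure D1:**
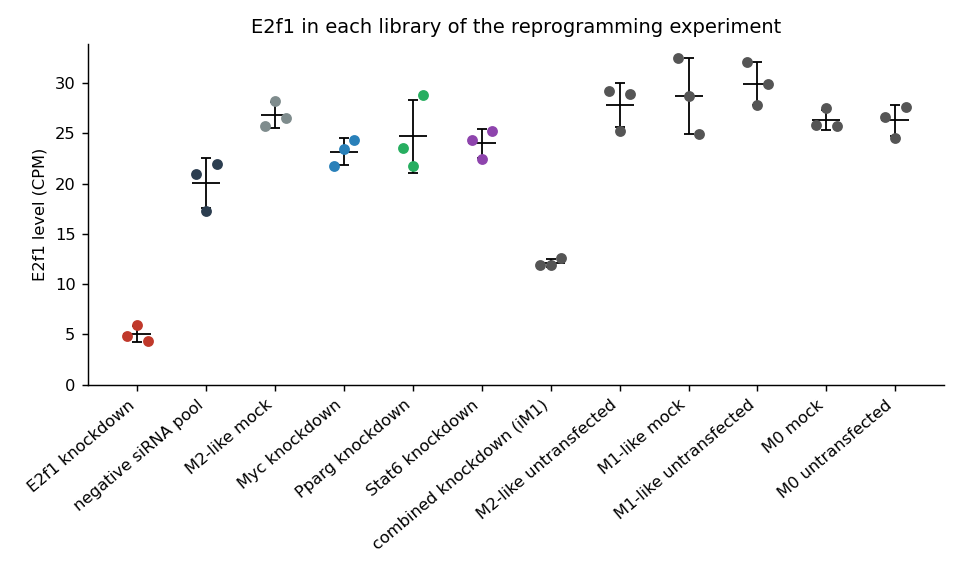
E2f1 level in CPM (y axis) in each of the 36 libraries, by group (x axis), with 1 point per library and a bar with whiskers for the mean and SD (n = 3). The 3 E2f1 knockdown libraries sit between 4.34 and 5.94 CPM, below the iM1 libraries and below all other groups.

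None of the other 12 members of the E2F and Rb family list was called. The activator E2f2 was at 3.85, 3.35 and 3.39 CPM after knockdown and at 5.17, 3.87 and 5.21 CPM in the negative siRNA pool, groups that did not overlap, yet the log2 fold change of -0.43 (SE 0.23) had an adjusted p of 0.51. E2f3, the other activator, differed by -0.06 on the log2 scale (95% interval -0.21 to 0.10), and the repressor E2f4 by 0.07 (-0.11 to 0.25). Rb1 and its relatives Rbl1 and Rbl2 differed by -0.08, -0.06 and -0.04, and the partners Tfdp1 and Tfdp2 by 0.15 and 0.01. The intervals of E2f2 and of E2f7, a repressor at under 1 CPM, reached beyond 1.5-fold, and those of the other 10 genes did not.

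Across 14172 genes tested, 37 were higher and 92 lower after E2f1 knockdown than with the negative siRNA pool, which is 0.261% and 0.649% of the genes. These changes were small: 96 of the 129 genes changed by less than 1.5-fold, and 3 rose and 10 fell by at least 2-fold. In all 129 genes the 3 and the 3 libraries did not overlap, as was the case for 21.3% of all genes tested. Libraries with the same replicate number deviated together, so the numbers were taken to pair the samples. The main fit did not include this pairing. It gave the 129 calls and, unless stated, all other values reported here. With the replicate number as a block, 70 genes were higher and 166 lower (0.494% and 1.17%), and all 129 genes were among them. Leaving out E2f1 knockdown replicate 2 lowered the number of calls from 129 to 45, and leaving out any other of the 6 libraries gave 63 to 86. Of 33 called genes named by rule, 14 kept their call whichever library was left out, E2f1 among them. With both controls pooled as the reference, 650 genes were called, 86 of the 129 among them, and 11 of the 33 named genes were not (B3glct, Casp6, Csnk1g2, Dnajb14, Gpr162, Katnal1, Pik3r2, Tlr9, Tmem131l, Tnfrsf26 and Xxylt1).

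At a mean log2 CPM of at least 2, the largest decreases after that of E2f1 were in enzymes of lipid synthesis and in genes of varied function. Scd1, the stearoyl-CoA desaturase that makes monounsaturated fatty acids (chr19:44394455-44407879), was at 18.1, 11.0 and 17.9 CPM after E2f1 knockdown and at 40.7, 24.9 and 56.9 CPM in the negative siRNA pool. Its log2 fold change was -1.39 (SE 0.21, adjusted p = 0.00050), a 2.62-fold decrease, and the call was kept whichever library was left out. The neighbouring Scd2 (chr19:44293674-44306864), a second desaturase, was at 81.0, 53.9 and 96.2 CPM against 142, 118 and 238 CPM, with a log2 fold change of -1.11 (adjusted p = 0.0087). Its call was lost without E2f1 knockdown replicate 2 and without negative siRNA pool replicate 3, the latter with a log2 fold change of -0.76 and an adjusted p of 0.179. In both genes the second replicate was the lowest of each group.

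Among the remaining large decreases, B3gnt7, a glycosyltransferase that extends N-acetyllactosamine chains, was at 3.21, 3.40 and 3.53 CPM against 9.63, 7.4 and 7.66 CPM (log2 fold change -1.28, adjusted p = 0.0015). Ifi30, the lysosomal thiol reductase GILT that prepares antigens for MHC class II, was at 217, 232 and 216 CPM against 361, 374 and 390 CPM, a 1.69-fold decrease (log2 fold change -0.76, SE 0.10, adjusted p = 6.0e-05). Vegfb, a growth factor of the VEGF family, was at 29.0, 28.4 and 27.4 CPM against 48.7, 46.3 and 44.8 CPM (log2 fold change -0.72, adjusted p = 0.0010). Tnfrsf26, a decoy-type TNF receptor family member, was at 33.8, 38.8 and 32.7 CPM against 58.0, 60.7 and 58.4 CPM (log2 fold change -0.75, adjusted p = 0.0044). The calls of B3gnt7, Ifi30, Vegfb and Tnfrsf26 were kept whichever library was left out, and that of Tnfrsf26 was lost with both controls pooled. Tlr9, the endosomal receptor for unmethylated DNA, and Aldh1a2, which makes retinoic acid, fell by 0.83 and 0.79 on the log2 scale, and the orphan receptor Gpr162 fell by 1.08. Ssx2ip, a centrosome and adhesion protein, fell by 0.73. The calls of Tlr9, Aldh1a2, Gpr162 and Ssx2ip were lost in 2 to 5 of the 6 fits that left out a library, with adjusted p-values of up to 0.345 for Gpr162 without negative siRNA pool replicate 3, 0.151 for Tlr9 and 0.114 for Aldh1a2 without E2f1 knockdown replicate 2, and 0.0677 for Ssx2ip without E2f1 knockdown replicate 3.

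The median log2 fold change was 0.395 for the genes called higher and -0.400 for those called lower. The 3 increases of at least 2-fold were in weakly expressed genes, Sntb1, Dzank1 and Gm14005, with log2 fold changes of 1.09, 2.50 and 1.38 and at most 5.42 CPM in any of the 6 libraries. They are named after their values were seen, since the genes below are the largest changes at a mean log2 CPM of at least 2. Ifitm6, of the interferon-induced transmembrane family, was at 25.9, 21.1 and 20.8 CPM after E2f1 knockdown and at 15.9, 12.7 and 11.0 CPM in the negative siRNA pool (log2 fold change 0.78, SE 0.18, adjusted p = 0.030). Trim16, a ubiquitin ligase, rose by 0.62 on the log2 scale, Pik3r2, a regulatory subunit of PI3-kinase, by 0.61, and Casp6, an executioner caspase, by 0.51. Casp6 was at 16.5, 15.3 and 16.2 CPM against 8.85, 12.4 and 12.6 CPM. Fam98b, part of the tRNA ligase complex, was at 36.7, 35.1 and 35 CPM against 26.5, 26.1 and 25.6 CPM (log2 fold change 0.45, SE 0.08, adjusted p = 0.0014). Mrpl27, a protein of the large mitochondrial ribosomal subunit, and Csnk1g2, a casein kinase, both rose by 0.49, and Tmem131l by 0.48. The calls of Fam98b, Mrpl27, Csnk1g2 and Tmem131l were kept whichever library was left out, and those of Csnk1g2 and Tmem131l were lost with both controls pooled. Those of Ifitm6, Trim16, Pik3r2, Casp6 and of the 4 other genes among the 12 largest increases (Katnal1, Capn10, Xxylt1 and B3glct, log2 fold changes of 0.45 to 0.50) were lost in 3 to 6 of those fits, with adjusted p-values of up to 0.295 for Katnal1 without E2f1 knockdown replicate 1. Ifi30 (chr8:70762774-70766663) and Pik3r2 (chr8:70768176-70776713) lie next to each other on the minus strand of GRCm38, and both share exon bases with ENSMUSG00000110575 on the opposite strand. Exon bases are likewise shared with another gene by B3gnt7, Tnfrsf26, Scd2, Capn10, Katnal1, Mrpl27 and Trim16, and by Hmgcs1, Slbp, Dnajb14, Il10rb and Scpep1, which are described further on. The strand setting of the counting is not given in the sources used here, so these genes are uncertain to the extent that reads of their neighbours were counted.

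**Figure D2:**
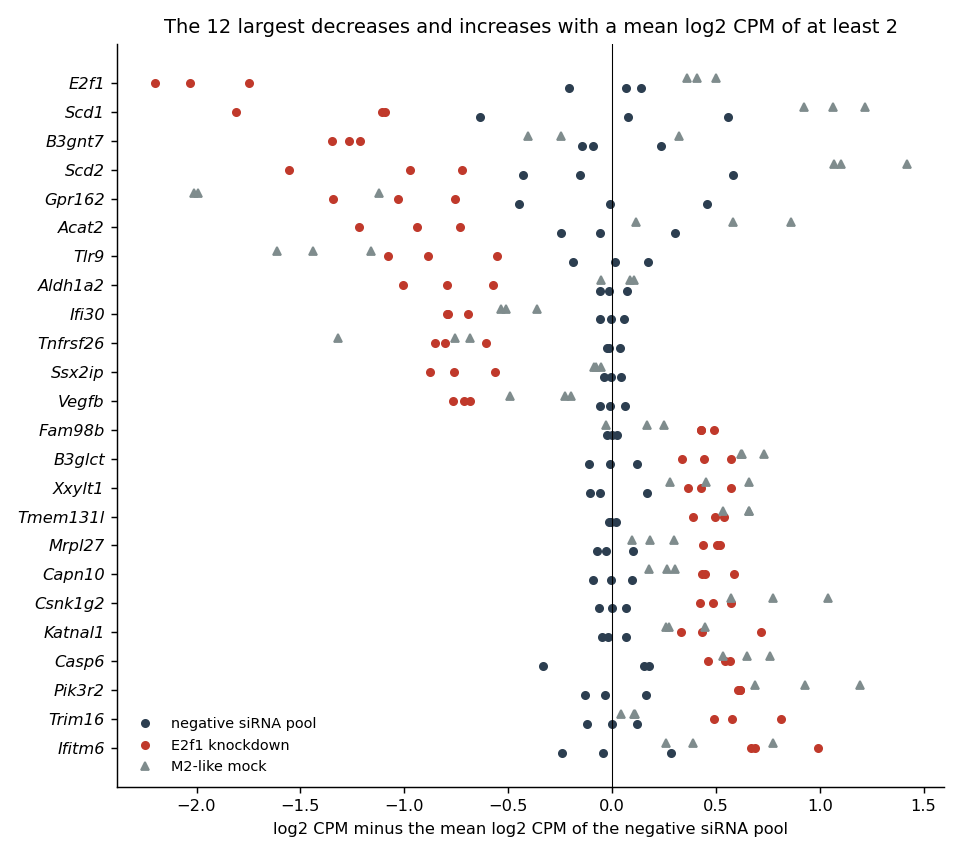
Log2 CPM of each library relative to the mean log2 CPM of the negative siRNA pool (x axis) for the 12 largest decreases and the 12 largest increases at a mean log2 CPM of at least 2 (y axis), with 3 points per group for E2f1 knockdown, negative siRNA pool and M2-like mock. The rule of choice admits only genes in which the E2f1 knockdown and negative siRNA pool points do not overlap, so their separation is no finding. All 3 mock points lie on the side of the E2f1 knockdown in Tlr9, Gpr162, Tnfrsf26, Pik3r2 and Csnk1g2, among others. They lie beyond the negative siRNA pool on the other side in E2f1, Scd1 and Scd2.

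The mock, the second control, lay near either group depending on the gene. Tnfrsf26 was at 36.8, 35 and 23.6 CPM in the M2-like mock, beside 32.7 to 38.8 CPM after E2f1 knockdown and 58.0 to 60.7 CPM in the negative siRNA pool. Pik3r2 was at 82.1, 69.6 and 98.7 CPM in the mock, at 65.6 to 66.1 CPM after E2f1 knockdown and at 39.5 to 48.4 CPM in the negative siRNA pool. Among 6 M2-like groups (E2f1 knockdown, negative siRNA pool, mock and the Myc, Pparg and Stat6 knockdowns), the mean of the negative siRNA pool was the lowest for 28 of the 37 genes called higher, while that of the E2f1 knockdown was the highest for 13. For the 92 genes called lower, the negative siRNA pool had the highest mean in 45 and the E2f1 knockdown the lowest in 38. Over all genes tested the negative siRNA pool was the highest group in 13.0% and the lowest in 13.4%, and the E2f1 knockdown in 11.6% and 11.3%. These counts carry no test, since the call itself sets these 2 groups apart. Against the mock itself, 894 genes were higher and 754 lower after E2f1 knockdown (6.31% and 5.32%), a comparison that shares the 3 E2f1 knockdown libraries.

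Genes of DNA replication, the classical targets of E2F factors, held a single call, a decrease, beside 0.649% of all genes called lower. Of 59 tested genes of G1/S and DNA replication, none was higher and 1, Slbp, was lower by edgeR, and the median log2 fold change was -0.005, beside 0.001 over all genes tested. Slbp, which binds the stem-loop of histone mRNAs and allows their processing in S phase, was at 24.1, 24.4 and 21.2 CPM after E2f1 knockdown and at 31.5, 27.6 and 31.1 CPM in the negative siRNA pool (log2 fold change -0.37, SE 0.09, adjusted p = 0.048). That call was lost in 5 of the 6 fits that left out a library, with an adjusted p of 0.282 without E2f1 knockdown replicate 3. Cdk2, the kinase of the G1/S transition, was at 16.9, 18.8 and 16.6 CPM against 22.5, 22.2 and 25.2 CPM, with a log2 fold change of -0.42 and an adjusted p of 0.069, and it passed with the replicate block (adjusted p = 0.048). DESeq2 called 1 gene higher and 2 lower, Dnmt1 (adjusted p = 0.029), Cdk2 (adjusted p = 0.035) and Slbp. By edgeR the maintenance methyltransferase Dnmt1 had a log2 fold change of 0.23 (adjusted p = 0.094) and the helicase subunit Mcm6 one of -0.22 (SE 0.08, adjusted p = 0.29). Mcm6 was at 35.4, 34.6 and 33.1 CPM against 38.3, 40.4 and 41.1 CPM.

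Mitotic genes were weakly expressed in both groups. None of 31 tested genes of G2/M and mitosis was called by edgeR or DESeq2, 1 was higher and 1 lower at an unadjusted p under 0.05 (693 higher and 846 lower among all 14172 genes), and the median log2 fold change was -0.16 with 71.0% of the genes below 0, beside 49.8% of all genes tested. The proliferation marker Mki67 was at 5.91, 5.60 and 8.42 CPM after E2f1 knockdown and at 8.73, 8 and 9.89 CPM in the negative siRNA pool (log2 fold change -0.43, 95% interval -0.93 to 0.08). Cyclin B2 (Ccnb2) was at 1.80, 2.31 and 2.65 CPM against 2.65, 4.4 and 2.92 CPM, and the mitotic kinase Plk1 at 1.73, 2.54 and 2.31 CPM against 3.01, 3.27 and 3.32 CPM, with log2 fold changes of -0.56 (-1.07 to -0.04) and -0.54 (-1.17 to 0.09). Both intervals reach past a 2-fold decrease, which is therefore not excluded for these genes. Of 12 CDK inhibitors, D cyclins and their kinases none was called, although 4 were lower at an unadjusted p under 0.05, among them Cdkn2c (7.58, 7.90 and 7.67 CPM against 11.4, 10.6 and 9.32 CPM, adjusted p = 0.30).

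The promoters of these genes were read from RefSeq windows of 250 bases before to 50 bases after the start (GRCm38.p6), which were found for 10137 of the 14172 genes tested. The E2F-type letters searched, on both strands, were TTTCCCGC, TTTCGCGC, TTTGCCGC and TTTGGCGC. A gene with several windows counted if any of them held the letters. That was so for 4.66% of the tested genes with a window and 2.60% of all genes with one, tested or not. It was also so for 18 of the 46 G1/S and DNA replication genes with a window (39.1%). By edgeR none of those 18 genes was called, and their median log2 fold change was -0.04. Cdk2 and Dnmt1 are among the 18, and DESeq2 called Cdk2 lower and Dnmt1 higher. Cdk2 also passed with the replicate block. Of the 68 genes called lower that had a window, 4 held the letters (5.88%), namely Zfp367, Cmtm6, Ggta1 and Mapk6, and of the 30 genes called higher that had one, none did. Zfp367, a zinc finger transcription factor, was at 14.2, 16.4 and 18.8 CPM after E2f1 knockdown and at 23.5, 23.8 and 24.6 CPM in the negative siRNA pool (log2 fold change -0.54, adjusted p = 0.011), and it was chosen for display after its values were seen. Its mean in the mock was 18.2 CPM, and it was not called against the mock (log2 fold change -0.15, adjusted p = 0.49). A match of letters is a description, not a bound site. The windows of Zfp367 (chr13:64153150-64153449, minus strand) and of Mcm6 (chr1:128359656-128359955, minus strand), the latter as the replication gene with the most matches, are shown from 5′ to 3′ with the matches in capitals. The first 2 of the 3 matches in Mcm6 overlap.
Zfp367: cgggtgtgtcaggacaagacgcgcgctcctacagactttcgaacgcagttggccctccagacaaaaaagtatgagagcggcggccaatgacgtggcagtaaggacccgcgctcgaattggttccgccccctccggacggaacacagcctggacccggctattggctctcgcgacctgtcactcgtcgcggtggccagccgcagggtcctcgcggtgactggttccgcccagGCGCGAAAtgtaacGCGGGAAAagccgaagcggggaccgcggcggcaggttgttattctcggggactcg
Mcm6: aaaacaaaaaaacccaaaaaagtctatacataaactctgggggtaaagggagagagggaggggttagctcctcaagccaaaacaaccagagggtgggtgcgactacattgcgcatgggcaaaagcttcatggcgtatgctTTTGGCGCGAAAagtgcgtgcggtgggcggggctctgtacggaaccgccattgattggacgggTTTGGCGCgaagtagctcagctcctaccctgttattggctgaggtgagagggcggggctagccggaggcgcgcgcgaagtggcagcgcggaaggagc

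Among the metabolic lists, those of lipid synthesis held the calls against the negative siRNA pool. Of 35 tested genes of fatty acid metabolism, Scd1 and Scd2 fell and none rose, and the median log2 fold change was -0.07. Fasn, the fatty acid synthase, was at 42.3, 39.1 and 62.6 CPM after E2f1 knockdown and at 60.6, 63.2 and 84.2 CPM in the negative siRNA pool, with a log2 fold change of -0.53 (SE 0.17) and an adjusted p of 0.16, which became 0.012 with the replicate block. Of 25 tested genes of cholesterol synthesis, 3 fell and none rose, 24 had a log2 fold change below 0, and the median was -0.27, beside 0.649% of all genes called lower and 49.8% below 0. Acat2, which joins 2 acetyl-CoA at the start of the pathway, was at 5.52, 4.56 and 6.38 CPM against 10.2, 8.94 and 13.0 CPM (log2 fold change -0.98, adjusted p = 0.0054). Hmgcs1, the HMG-CoA synthase, was at 62.7, 58.4 and 81.8 CPM against 89.9, 83.2 and 110 CPM (log2 fold change -0.48, adjusted p = 0.044). Sc5d, a late desaturase of the pathway, was at 55.7, 46.7 and 63.5 CPM against 70.5, 66.6 and 83.1 CPM (log2 fold change -0.41, adjusted p = 0.048). In Acat2, Hmgcs1 and Sc5d the second replicate was the lowest and the third the highest of each group. The call of Acat2 was lost in 2 of the 6 fits that left out a library, and those of Hmgcs1 and Sc5d in 4, without negative siRNA pool replicate 3 with adjusted p-values of 0.0871, 0.357 and 0.357.

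The means of 7 lipid genes picked by hand (Scd1, Scd2, Fasn, Acat2, Hmgcs1, Sc5d and Fdps) were highest in the mock. They lay lower after E2f1 knockdown than with the negative siRNA pool. For Scd1, Scd2, Acat2, Hmgcs1 and Sc5d, the genes called lower in the lipid lists, that order follows from the choice. Scd1 had a mean of 81.3 CPM in the mock, 40.8 CPM in the negative siRNA pool, 15.7 CPM after E2f1 knockdown, 25.1 CPM after Pparg knockdown, 27.6 CPM after Stat6 knockdown and 9.02 CPM after Myc knockdown. Hmgcs1 was at 133 CPM in the mock, 94.3 CPM in the negative siRNA pool, 67.6 CPM after E2f1 knockdown, 68.9 CPM after Pparg knockdown, 69.5 CPM after Stat6 knockdown and 48.4 CPM after Myc knockdown. Against the mock, 22 of the 25 cholesterol genes and 15 of the 35 fatty acid genes were lower after E2f1 knockdown and none higher, beside 5.32% of all genes. The negative siRNA pool was itself lower than the mock in 17 of the 25 and 13 of the 35 genes, beside 5.03% of all genes, in a comparison that shares the mock libraries. Tested directly, no cholesterol gene was called between the E2f1 and the Pparg or Stat6 knockdowns (edgeR). In contrast, 13 of 25 were higher after E2f1 than after Myc knockdown, beside 13.5% of all genes. The log2 difference between E2f1 and Stat6 knockdown was -0.82 for Scd1 (adjusted p = 0.054), -0.73 for Acat2 (adjusted p = 0.056) and -0.04 for Hmgcs1 (adjusted p = 0.93). Sterol synthesis genes are switched on by SREBP factors. Their sterol-type letters TCACNCCAC were found for 1.36% of the tested genes with a window and for 1 of the 17 such cholesterol genes, Hmgcs1. Its window (chr13:119690101-119690400, plus strand, GRCm38.p6) is shown with the match in capitals.
Hmgcs1: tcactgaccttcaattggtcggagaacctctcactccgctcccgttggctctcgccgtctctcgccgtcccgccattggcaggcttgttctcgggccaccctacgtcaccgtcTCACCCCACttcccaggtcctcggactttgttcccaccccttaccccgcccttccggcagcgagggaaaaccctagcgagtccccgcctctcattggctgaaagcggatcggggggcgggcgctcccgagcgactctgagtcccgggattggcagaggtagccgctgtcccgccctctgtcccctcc

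**Figure D3:**
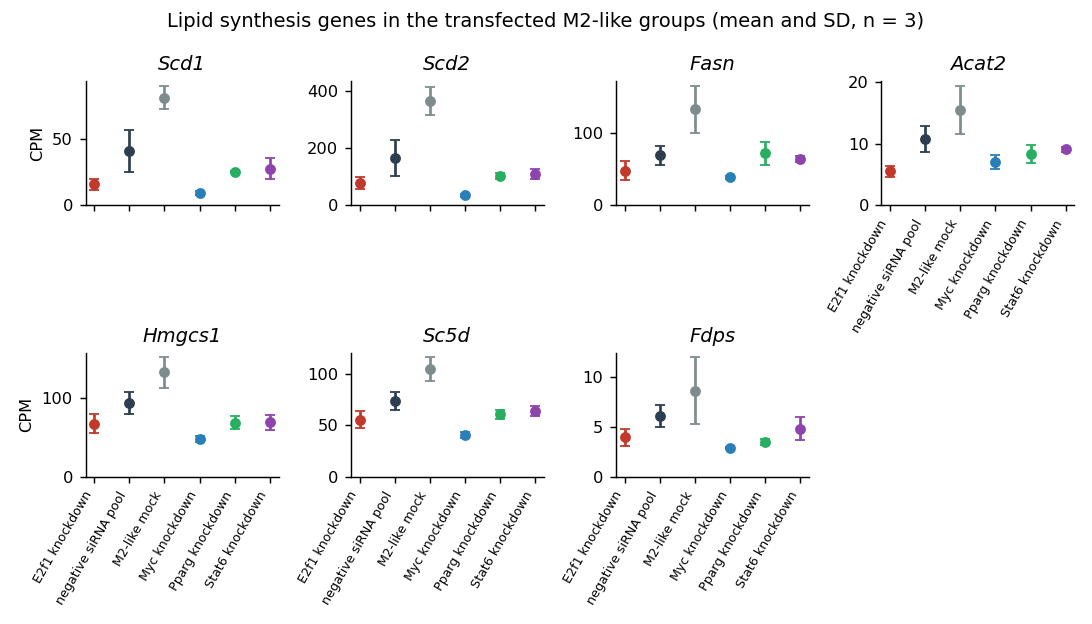
Mean level in CPM (y axis, from 0) with SD (n = 3) of 7 lipid genes in 6 transfected M2-like groups (x axis). In each of the 7 genes, which were picked by hand, the mock is the highest group and the E2f1 knockdown lies below the negative siRNA pool. The latter order follows from the choice for Scd1, Scd2, Acat2, Hmgcs1 and Sc5d, which were called lower. For Scd1 the means run from 81.3 CPM in the mock to 40.8 CPM in the negative siRNA pool and 15.7 CPM after E2f1 knockdown.

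In the main fit the lists of glycolysis, the citrate cycle and nucleotide synthesis held no call. Since 0.261% of all genes were called higher and 0.649% lower, the lack of a call in lists this short says little about their members. None of 26 glycolysis genes was called by edgeR or DESeq2. By edgeR the median log2 fold change was 0.005, with 1 higher and 3 lower at an unadjusted p under 0.05. The hexokinases, which commit glucose to glycolysis, differed by 0.12 (Hk1, 95% interval -0.05 to 0.29), 0.005 (Hk2, -0.13 to 0.14) and 0.03 (Hk3, -0.09 to 0.15) on the log2 scale, so that changes beyond 1.5-fold lay outside the interval of all 3. Hk1 was at 98.4, 105 and 104 CPM after E2f1 knockdown and at 85.5, 99.5 and 97.3 CPM in the negative siRNA pool. Aldoc, an aldolase isoform, was at 7, 6.00 and 10.9 CPM against 13.3, 10.7 and 14.7 CPM, with a log2 fold change of -0.71 and an adjusted p of 0.17, or 0.0072 with the replicate block. None of 24 genes of the citrate cycle and none of 20 of nucleotide and one-carbon synthesis was called by edgeR or DESeq2. Their medians were 0.005 and 0.05. Both lists had 3 genes at an unadjusted p under 0.05, beside 1539 of all 14172 genes in either direction. The fit of only the groups compared called the glycolysis gene Pfkl and the nucleotide synthesis gene Gart, and that without a filter on low counts called Aldoc.

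**Figure D4:**
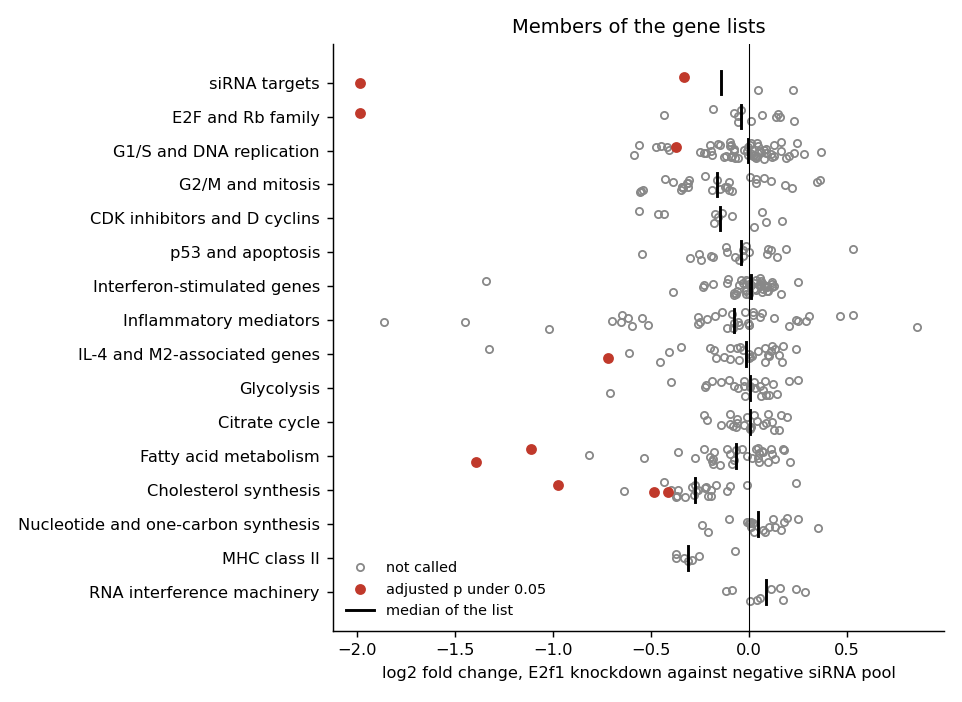
Log2 fold change of E2f1 knockdown against negative siRNA pool (x axis) for each tested gene of the 16 lists (y axis), with filled points for an adjusted p under 0.05, open points for the others and a bar for the median of the list. Filled points are few: E2f1 and Pparg among the siRNA targets, Slbp among the replication genes, Vegfb among the M2-associated genes, and 2 and 3 genes in the lipid lists.

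In the main fit the interferon and inflammatory lists held no call between E2f1 knockdown and the negative siRNA pool. Of all genes tested, 0.261% were called higher and 0.649% lower in that comparison. Many genes of these lists were higher than in the mock. None of 45 interferon-stimulated genes was called, by edgeR or DESeq2, with 1 lower at an unadjusted p under 0.05 and a median log2 fold change of 0.01, but 43 of the 45 were higher than in the mock, with a median of 1.18, beside 6.31% of all genes. The negative siRNA pool against the same mock also had 43 of 45 higher, with a median of 1.17, beside 6.67% of all genes. Rsad2, the antiviral protein viperin, was at 390, 416 and 444 CPM after E2f1 knockdown, at 525, 536 and 575 CPM in the negative siRNA pool and at a mean of 128 CPM in the mock, and its difference from the negative siRNA pool (log2 fold change -0.39, adjusted p = 0.45) did not pass. Ifit3b was at 42.4, 47.7 and 70.4 CPM, at 41.0, 38.2 and 55.4 CPM and at a mean of 7.96 CPM in the same order of groups. None of 39 inflammatory mediators was called against the negative siRNA pool by edgeR or DESeq2, with 1 in each direction at an unadjusted p under 0.05, and 14 were higher than in the mock, as were 13 in the negative siRNA pool. The chemokine Ccl3 was at 87.5, 84.2 and 87.6 CPM against 111, 92.2 and 97.0 CPM (adjusted p = 0.55), Ccl4 at 18, 23.1 and 20.4 CPM against 33.2, 31.9 and 29.5 CPM (log2 fold change -0.62, adjusted p = 0.34), and Il1rn, the interleukin 1 receptor antagonist, at 154, 186 and 205 CPM against 126, 137 and 132 CPM (log2 fold change 0.46, adjusted p = 0.22). Of the genes named by rule in these lists, the fit of only the groups compared called Rsad2, Ccl4 and Il1rn. The fit without a filter on low counts called the same genes and Clec4e. Ccl2 and Tnf differed by -0.02 and 0.02, with intervals of -0.56 to 0.51 and -0.37 to 0.41. Cxcl9, Il6 and Nos2 were near the limit of detection, at up to 0.40, 0.27 and 1.15 CPM in any of the 6 libraries, and Nos2 had a mean of 502 CPM in the M1-like mock.

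The M2-associated genes held 1 call in the main fit, beside 0.261% of all genes called higher and 0.649% lower. Of 32 tested, Vegfb was lower and none higher, and the median was -0.02. Chil3, the chitinase-like protein Ym1, was at 777, 820 and 701 CPM against 1011, 864 and 765 CPM (log2 fold change -0.20, 95% interval -0.51 to 0.11). Retnla and Arg1 varied strongly between replicates in both groups, with Retnla at 170, 323 and 119 CPM against 180, 368 and 139 CPM, so that its interval of -1.06 to 0.73 does not exclude a 1.5-fold change in either direction. Nor does the interval of Arg1, -1.14 to 1.44. Of the other siRNA targets, Pparg was at 106, 97.8 and 107 CPM after E2f1 knockdown and at 123, 138 and 130 CPM in the negative siRNA pool, a decrease of 1.26-fold (log2 fold change -0.33, SE 0.08, adjusted p = 0.037). The mock lay at 112 to 128 CPM, and the log2 fold change against it was -0.20 (adjusted p = 0.12). The Pparg call was lost in all 6 fits that left out a library, with an adjusted p of up to 0.204 without E2f1 knockdown replicate 2. Myc and Stat6 differed by 0.22 and 0.05 (adjusted p = 0.64 and 0.92).

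MHC class II genes, which present peptides to CD4+ T cells, were all below the negative siRNA pool without passing the test in the main fit. All 7 had a log2 fold change below 0, beside 49.8% of all genes tested, with a median of -0.31. Of these, 6 had an unadjusted p under 0.05, as had 1539 of all 14172 genes in either direction. H2-DMa was at 37.1, 32.6 and 35.4 CPM against 42.7, 44.6 and 48.6 CPM (log2 fold change -0.37, adjusted p = 0.089), and it was called with the replicate block (adjusted p = 0.024) and by DESeq2. Cd74, the invariant chain, was at 1012, 898 and 893 CPM against 1191, 1201 and 1133 CPM (log2 fold change -0.33, adjusted p = 0.26). The fit of only the groups compared called Cd74, H2-Aa, H2-DMa and H2-Eb1. The fit without a filter on low counts called Cd74, H2-Aa and H2-DMa. Against the mock all 7 were lower, beside 5.32% of all genes, with a median of -0.56. In the negative siRNA pool 3 of the 7 were lower than in the mock, beside 5.03% of all genes, with a median of -0.26. Tested against the other knockdowns, 5 of the 7 were lower than after Pparg knockdown, beside 2.05% of all genes. All 7 were higher than after Myc knockdown, beside 13.5% of all genes, and none was called against Stat6 knockdown. Of 20 tested genes of the p53 pathway and apoptosis and of 10 of the RNA interference machinery none was called by edgeR or DESeq2, with medians of -0.04 and 0.09 and with 5 and 2 genes at an unadjusted p under 0.05. Of the p53 and apoptosis genes, the fit of only the groups compared called Bcl2l11 and Ccng1, and that without a filter called Bcl2.

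The direct comparisons with the other single knockdowns gave the genes in which the E2f1 pool stood apart from all of them. After E2f1 knockdown, 1910 genes were higher and 1774 lower than after Myc knockdown (13.5% and 12.5% of the genes tested), 263 and 290 than after Pparg knockdown (1.86% and 2.05%), and 91 and 63 than after Stat6 knockdown (0.642% and 0.445%). With a mean log2 CPM of at least 2, 7 genes were lower and 1 higher than with the negative siRNA pool and than in each of these 3 knockdowns, 4 comparisons that share the E2f1 knockdown libraries. E2f1 itself had log2 fold changes of -2.19, -2.28 and -2.24 against Myc, Pparg and Stat6 knockdown. Ssx2ip was at 6.16, 5.37 and 4.96 CPM, beside means of 9.10 CPM in the negative siRNA pool, 8.66 CPM in the mock and 8.63 to 10.8 CPM in the other knockdowns. Ifi30 had a mean of 221 CPM, beside 302 to 356 CPM in the other knockdowns and 271 CPM in the mock. Dirc2, a lysosomal transporter of the SLC49 family, was at 56.6, 50.7 and 52.4 CPM, beside 78.6, 70.7 and 72.2 CPM in the negative siRNA pool and means of 71.3 to 83.3 CPM in the mock and the other 3 single knockdowns (log2 fold change -0.47, SE 0.07, adjusted p = 0.00039).

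Il10rb, a subunit of the interleukin 10 receptor, was at 160, 147 and 147 CPM, beside 220, 200 and 211 CPM in the negative siRNA pool (log2 fold change -0.48, adjusted p = 0.00076). Scpep1, a serine carboxypeptidase, and Kmt5a, the histone H4 lysine 20 methyltransferase, fell by 0.34 and 0.28. The gene that was higher in all 4 comparisons was Dnajb14, an Hsp40 co-chaperone of the endoplasmic reticulum, at 91.2, 85.8 and 95 CPM beside 67.6, 62.5 and 69.2 CPM in the negative siRNA pool (log2 fold change 0.45, adjusted p = 0.0020), but its mean in the mock was higher still, at 108 CPM, and its call was lost with both controls pooled. The calls of Ifi30, Dirc2, Il10rb, Scpep1 and Dnajb14 against the negative siRNA pool were kept whichever library was left out, whereas that of Kmt5a was lost in 4 of 6 fits, with an adjusted p of up to 0.0801 without E2f1 knockdown replicate 3. Against the mock, the log2 fold changes were -0.65 for Ssx2ip (adjusted p = 0.0031), -0.44 for Dirc2 (adjusted p = 4.1e-05), -0.41 for Il10rb (adjusted p = 0.00037) and -0.26 for Scpep1 (adjusted p = 0.0064), whereas Ifi30 (-0.29, adjusted p = 0.061) and Kmt5a (-0.16, adjusted p = 0.085) did not pass.

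The last comparison asked on which side of the M1/M2 axis the affected genes lie, with the direction taken from the M1-like and M2-like mock libraries, which are in neither arm. Of all genes tested, 30.9% were higher in the M1-like mock and 29.8% in the M2-like mock. Of the 92 genes lower after E2f1 knockdown, 42 (45.7%) were higher in the M2-like and 28 (30.4%) in the M1-like mock. Of the 37 genes higher after E2f1 knockdown, 14 (37.8%) were higher in the M2-like and 11 (29.7%) in the M1-like mock. The M2-side decreases held the lipid genes, with M1-like against M2-like log2 differences of -5.93 for Scd1, -3.61 for Scd2 and -1.95 for Hmgcs1, and Pparg. Without E2f1 knockdown replicate 2, the share of higher genes that were on the M1-like side was 7.14%. That fit had 45 calls in both directions together, so this share rests on few genes. With the mean of both controls as reference the share was 59.8%, a reference that holds the M2-like mock libraries themselves.

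**Figure D5:**
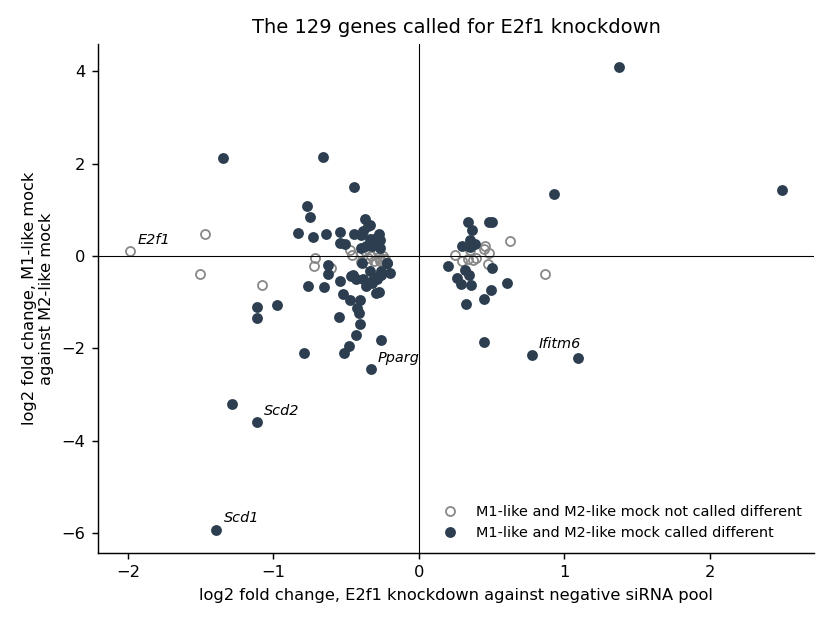
Log2 fold change of E2f1 knockdown against negative siRNA pool (x axis) and of M1-like mock against M2-like mock (y axis) for the 129 called genes, with filled points where the 2 mock groups were called different. The points spread on both sides of 0 on the y axis, with 42 of the 92 genes on the left called below it and Scd1 and Scd2 far down.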

How the data were processed

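The authors deposited raw read counts per Ensembl gene, 1 table per library, for 39179 genes. Before that, reads were trimmed (Trimmomatic), placed on GRCm38 (mm10) by TopHat2 and assigned to genes by featureCounts. Versions, annotation release and strand setting are not given in the sources used here, so reads of overlapping genes on opposite strands may not be separated. Symbols and coordinates came from GENCODE M21 and matched 37607 genes. The 36 libraries of 12 conditions were fitted together in edgeR 4.0.16 (R 4.3.3) with TMM scaling, filterByExpr (minimum count 10, minimum total 15) and the two-sided quasi-likelihood test. P-values were adjusted by Benjamini-Hochberg over all 14172 genes, and genes with an adjusted p under 0.05 were called. Counts at an unadjusted p under 0.05 are from this edgeR fit. CPM used TMM-scaled library sizes, and the unscaled totals were 15179231 to 18150125 counts in the 6 libraries compared. SE was the absolute log2 fold change over the square root of F, and 95% intervals span 1.96 SE on each side.

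Same-numbered E2f1 knockdown and negative siRNA pool libraries had deviations from their group means that correlated at 0.184 to 0.199 across genes. The numbers were therefore taken as pairs, although the main fit held no term for them. Other pairs were below 0, but deviations within a group sum to 0, so this adds no separate evidence. Counts were simulated from the means, dispersions and library sizes of all 36 libraries, without pairing of replicates. Each gene had the same mean in every group, except for genes changed in the E2f1 knockdown libraries. On these counts of 13874 genes, edgeR recovered 67 of 100 genes changed 1.5-fold and 67 of 99 changed 2-fold, with 11 unchanged genes called. These rates describe that simulation and may differ from those of the real comparison. Genes were named by rule: the siRNA targets and E2F family, the 12 largest changes each way without overlap and with a mean log2 CPM of at least 2, up to 6 genes per list by p, the genes the study names beside this knockdown and M1/M2 genes, and up to 8 genes each way called against all 3 other knockdowns. The members, lists and rules were chosen with earlier results of these data known. Alternatives were DESeq2 1.42.0, RLE scaling, other count filters, fits of only the groups compared, a 2-fold minimum, the replicate block, both controls pooled and each replicate left out. The libraries of single 50 nt reads were not analysed here. A result on 1 gene is not reported here.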

Additional observations from a re-analysis of the deposited data

How the results depend on the processing

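E2f1 was called under every alternative run. The 129 calls against the negative siRNA pool became 209 with DESeq2, 237 without a filter on low counts, 342 with only the groups compared, 236 with the replicate block, 650 with both controls pooled, 13 at a minimum of 2-fold, and 45 to 86 with 1 library left out, where fewer libraries enter by construction. Against the M2-like mock 1648 calls became 270 at 2-fold and 1066 to 1574 with 1 library left out. Against Myc knockdown 3684 became 431 at 2-fold. Against Pparg knockdown 553 became 58 at 2-fold and 257 to 429 with 1 left out. Against Stat6 knockdown 154 became 273 with DESeq2, 326 without a filter, 345 with the replicate block, 13 at 2-fold and 49 to 89 with 1 left out. Between the mocks 8597 became 2938 at 2-fold. Of the genes higher after E2f1 knockdown, 59.8% were on the M1-like side with both controls pooled and 7.14% to 22.2% with 1 library left out, and 17.6% and 31.2% to 57.1% on the M2-like side. Of the genes lower, 20.5% (no filter), 21.2% (only the groups compared) and 12.3% (both controls pooled) were on the M1-like side, and 68.6% on the M2-like side with both controls pooled. With pooled controls Herc6, Isg20 and Rsad2 had log2 fold changes of 0.426, 0.618 and 0.659, the opposite of their direction against the negative siRNA pool. That reference includes the mock, in which these interferon-stimulated genes were low. The cause of the other differences was not tested. The replicate block kept all 33 named calls, and among the genes reported here it added Aldoc, Cdk2, Fasn and H2-DMa and changed no other. The fit of only the groups compared lost 4 of the 33 named calls and called 14 other named genes. The fit without a filter on low counts lost 2 and called 13 others.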

Other observations

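The following called genes lie outside the lists and were picked by hand after their values were seen, so they stand for no group. The lysosomal sulfatase Galns was at 148, 137 and 158 CPM after E2f1 knockdown against 191, 192 and 212 CPM in the negative siRNA pool (log2 fold change -0.42, adjusted p = 0.035). The peptidase Dpp7 fell by 0.36 (adjusted p = 0.011) and the membrane protein Scarb2 by 0.31 (adjusted p = 0.023). None of these 3 was called against the M2-like mock, with log2 fold changes of -0.19, 0.09 and 0.01. Rab1a, a GTPase of vesicle transport, was at 333, 337 and 344 CPM against 278, 275 and 277 CPM (log2 fold change 0.29, adjusted p = 0.0054). Gorasp2, a Golgi protein, rose by 0.30 (adjusted p = 0.013), the GTPase Rab12 by 0.39 (adjusted p = 0.0015) and the autophagy protein Becn1 by 0.34 (adjusted p = 0.024). Against the mock these 4 were not called, with log2 fold changes of 0.17, 0.001, -0.02 and 0.06.

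The transferrin receptor Tfrc was at 179, 180 and 180 CPM after E2f1 knockdown against 239, 236 and 295 CPM (log2 fold change -0.52, adjusted p = 0.00084), and its log2 fold change against the mock was -0.97 (adjusted p = 2.8e-09). The integrin Itgal was at 38.3, 38.1 and 37.7 CPM against 55.9, 56.6 and 67.8 CPM (log2 fold change -0.66, adjusted p = 0.0025) and at a mean of 33.9 CPM in the mock, from which it was not called different (adjusted p = 0.45). The cytokine receptor chains Csf2rb and Csf2rb2, near-identical copies whose reads may be split uncertainly, fell by 0.27 and 0.22, with log2 fold changes of -0.06 and 0.01 against the mock.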
